A study of Mus musculus with 4 samples.

Results

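The 10 genes of macrophage repair and efferocytosis, the clearance of dying cells, described here are Trem2, Gpnmb, Lgals3, Apoe, Mrc1, Cd163, Folr2, Mertk, Axl and Gas6. They were chosen by symbol, and each had 1 row among the 31053 genes of the 4 count matrices. Their levels are given in macrophages, taken as cells with at least 3 UMIs (unique molecular identifiers, which count the RNA molecules captured) summed over the complement genes C1qa, C1qb and C1qc, and in the other cell classes that expressed them. The gate held 2665 of 33695 cells.

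The cells came from the submandibular salivary gland of female C57BL6/J mice and were profiled on the 10x Genomics platform after bead depletion of epithelial (EpCAM) and red blood (Ter119) cells and removal of dead cells. In the 2 deligated libraries the main ducts had been clipped for 14 days and then opened for 5 days, at an age of 14 weeks. The 2 homeostatic libraries came from mice of 12 weeks that had no surgery. Surgery, age and the Cell Ranger version in the file headers (6.0.1 for deligated, 7.0.0 for homeostatic) all changed together and cannot be told apart. The protocols also name the sublingual gland, and the labels do not say how many animals gave a library, so the p-values measure only the spread between these libraries, which may be technical.

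Macrophages take up apoptotic cells through receptors that bind phosphatidylserine on the dying cell, directly or through a bridging protein. Mertk and Axl are receptor tyrosine kinases of the TAM family and Gas6 is their bridging ligand. Trem2 is a lipid-sensing receptor, Apoe carries lipid, and Trem2, Apoe, Gpnmb (a lysosome-associated glycoprotein) and Lgals3 (galectin-3, a galactoside-binding lectin) are known from lipid-laden macrophages at sites of damage. Mrc1 (the mannose receptor CD206), Cd163 (the haemoglobin-haptoglobin receptor) and Folr2 (folate receptor beta) are scavenger or uptake receptors used as marks of resident, often perivascular, macrophages.

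Members that marked macrophages and members that did not can be set beside the letters upstream of their start sites. The 250 bases before the start site of all 10 genes were taken from RefSeq on GRCm38.p6 and searched on both strands for GAGGAA, a core that ETS factors such as the myeloid factor PU.1 bind, for the E-box CACGTG and for the AP-1 motif TGACTCA. The core GAGGAA was present in 4 of the 10 windows, those of Trem2, Apoe, Mrc1 and Axl, and in 23.3% of 32851 such windows of all genes. No window of the 10 held CACGTG or TGACTCA, which were in 6.02% and 4.46% of all windows. Those of 4 genes are shown, capitals marking the matches to GAGGAA, which a match on the opposite strand shows as its reverse complement: Trem2 (chr17:48346151-48346400, plus strand) and Mrc1 (chr2:14229164-14229413, plus strand), which had their highest level in macrophages, Axl (chr7:25788734-25788983, minus strand), which fibroblasts and mural cells also expressed, and Gas6 (chr8:13494536-13494785, minus strand), which was low in macrophages.
Trem2: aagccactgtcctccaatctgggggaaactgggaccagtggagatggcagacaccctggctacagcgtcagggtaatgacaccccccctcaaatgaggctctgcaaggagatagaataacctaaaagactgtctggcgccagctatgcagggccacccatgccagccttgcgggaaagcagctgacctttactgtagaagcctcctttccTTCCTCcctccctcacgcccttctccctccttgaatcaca
Mrc1: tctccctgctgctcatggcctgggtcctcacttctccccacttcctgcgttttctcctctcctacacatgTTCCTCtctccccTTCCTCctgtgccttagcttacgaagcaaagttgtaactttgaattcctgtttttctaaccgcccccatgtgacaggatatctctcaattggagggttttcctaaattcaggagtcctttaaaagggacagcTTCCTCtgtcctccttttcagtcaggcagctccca
Axl: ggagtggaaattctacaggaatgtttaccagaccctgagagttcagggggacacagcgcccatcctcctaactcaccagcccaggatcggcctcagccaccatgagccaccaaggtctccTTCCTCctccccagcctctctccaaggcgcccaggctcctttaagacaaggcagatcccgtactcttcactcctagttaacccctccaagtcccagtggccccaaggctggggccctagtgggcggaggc
Gas6: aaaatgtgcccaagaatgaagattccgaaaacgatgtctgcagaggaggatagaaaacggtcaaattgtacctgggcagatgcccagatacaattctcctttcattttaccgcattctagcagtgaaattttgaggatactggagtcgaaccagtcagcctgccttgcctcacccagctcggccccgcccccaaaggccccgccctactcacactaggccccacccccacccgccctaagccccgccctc
A match is a string of letters and was not tested as a binding site.

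Macrophages were a small part of the deligated libraries. The gate held 47 of 4357 and 144 of 7823 deligated cells, and 1258 of 10615 and 1216 of 10900 homeostatic cells. These are 1.08% (95% exact Clopper-Pearson interval 0.794 to 1.43%) and 1.84% (1.55 to 2.16%) against 11.9% (11.2 to 12.5%) and 11.2% (10.6 to 11.8%), and the groups did not overlap. The intervals cover counting error only, and the share also depends on how well other cells were captured. Defining macrophage markers were present in the gated cells of every library. In CPM (counts per 1000000 UMIs), Csf1r, the receptor of the macrophage growth factor CSF1, was at 543 and 549 after deligation and 398 and 483 in homeostasis. Cd68, a lysosomal glycoprotein of macrophages, was at 321 in both deligated libraries and at 276 and 351 in homeostasis. Adgre1 (F4/80) was at 169 and 189 against 246 and 273 CPM, and Ms4a7, Fcgr1 and Lyz2 also had UMIs in all 4 libraries. Adgre1 and Fcgr1 had no UMI in mural-like cells of any library or in homeostatic fibroblast-like cells. Gated cells summed to 283755 and 941683 UMIs after deligation and to 7873928 and 6243942 in homeostasis, with medians of 3730 and 4617.5 against 3936.5 and 3476.5 UMIs a cell.

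The gate also took in cells of other clusters. The 2 macrophage-like clusters held 2150 gated cells, which is 78.7% and 70.1% of those from deligated glands and 80.4% and 82.2% of those from homeostatic glands. Fibroblast-like clusters held 2 and 8 gated cells after deligation and 4 and 2 in homeostasis. As shares of the gate, NK-like clusters held 4.26% and 5.56% after deligation against 3.50% and 0.822%, endothelial-like clusters 2.13% and 4.86% against 1.19% and 1.32%, and the erythroid-like cluster 2.13% and 8.33% against 7.87% and 8.63%. Epithelial-like clusters held 17 and 22 homeostatic gated cells, and unnamed clusters 6.38% and 4.17% against 4.85% and 4.61% of the gate. All 6 fibroblast markers had UMIs in the gated cells of every library, at a sum of 2981 and 3223 CPM after deligation against 136 and 59.4 CPM without surgery. Within the macrophage-like clusters the same markers summed to 36.9 and 194 against 22.6 and 6.39 CPM. Haemoglobin genes gave 6.27% and 11.6% of the gated UMIs in the deligated and 14.4% and 15.9% in the homeostatic libraries, and 12.8%, 22.9%, 25.9% and 25.7% of gated cells held at least 10 haemoglobin UMIs. Each member is therefore given in the whole gate and, where that changed the reading, in the gated cells of macrophage-like clusters.

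Trem2, which lies on chromosome 17 (48346401 to 48354147, plus strand, GRCm38), was a macrophage gene in both states. Its level in gated cells was 201 and 346 CPM in the deligated and 276 and 317 CPM in the homeostatic libraries, and the groups overlapped. After each cell was thinned to 1000 UMIs, a Trem2 UMI was found in 20.5% and 30.5% of deligated and 25.7% and 24.0% of homeostatic macrophages, against at most 0.123% of T cell-like cells in any library. In no other class did the mean over the 4 libraries pass 1.2 CPM. The edgeR fit, which scales libraries by TMM so that its fold changes need not equal the ratio of CPM, gave a log2 fold change (deligated over homeostatic) of -0.30 (SE 0.23, adjusted p = 0.428), which did not pass the 0.05 threshold. In macrophage-like clusters alone it was 0.11 (SE 0.18, adjusted p = 0.728), and with a gate of at least 2 C1q UMIs it was -0.66 and passed (adjusted p = 0.0448). With 1 library left out it ran from -0.83 (without deligated replicate 2) to -0.03 (without deligated replicate 1).

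Apoe (chromosome 7, 19696109 to 19699188, minus strand) was found in nearly all macrophages. Its level was 25818 and 24500 CPM in the deligated and 17359 and 19729 CPM in the homeostatic libraries. Both deligated libraries were higher, although the whole gate gave a log2 fold change of only 0.19 (SE 0.17, adjusted p = 0.498). Within macrophage-like clusters the levels were 31885 and 35790 against 23022 and 23147 CPM, and Apoe rose by 0.49 on the log2 scale (SE 0.09, adjusted p = 0.000352). That call was lost when the trend of fold change on intron length was removed (0.21, adjusted p = 0.163). Thinned shares of cells with an Apoe UMI were 94.9%, 94.5%, 96.4% and 95.5%, beside 1.67% to 5.77% of T cell-like cells.

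Lgals3 (chromosome 14, 47367751 to 47386160, plus strand) was at 328 and 433 CPM in deligated and 296 and 318 CPM in homeostatic macrophages. In the whole gate both deligated libraries were higher, and the log2 fold change was 0.09 (SE 0.16, adjusted p = 0.760). Within macrophage-like clusters the levels were 245 and 547 against 356 and 345 CPM, so that the groups overlapped with the first deligated library lowest, and the log2 fold change was 0.24 (SE 0.18, adjusted p = 0.403). A UMI was found in 25.6% and 24.2% against 20.4% and 19.9% of thinned macrophages, beside 4.68% to 13.5% of T cell-like and 21.1% to 23.8% of NK-like cells. Lgals3 did not mark macrophages in this gland, since NK-like cells had 279 to 354 CPM, which overlaps the macrophage libraries.

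Gpnmb (chromosome 6, 49036546 to 49070929, plus strand) was nearly absent from macrophages. The gated cells held 1 and 5 UMIs after deligation and 1 and 3 in homeostasis, too few for the filter on low counts. Summed by group, the level was 17.3 times higher in deligated cells (counting interval 4.10 to 83.3, which leaves out the spread between libraries). All 6 of those deligated UMIs were in the 10 gated cells of fibroblast-like clusters, and all 4 homeostatic UMIs were in macrophage-like clusters. The 138 deligated gated cells of macrophage-like clusters held no Gpnmb UMI.

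**Figure D1:**
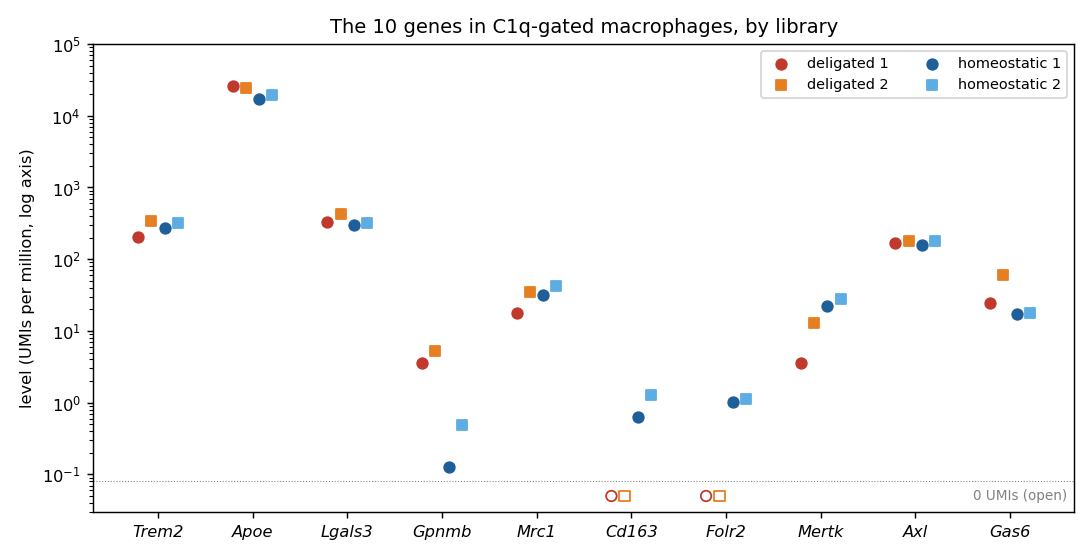
Level of each of the 10 genes in C1q-gated macrophages, in CPM on a log axis, with 1 point per library (2 deligated, 2 homeostatic) and open points below the dotted line for libraries with 0 UMIs. Apoe lay between 17359 and 25818 CPM in every library, Trem2, Lgals3 and Axl between 157 and 433 CPM, and Cd163 and Folr2 had no UMI in the deligated libraries.

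The receptors of resident macrophages gave few UMIs. Mrc1 (chromosome 2, 14229392 to 14332057, plus strand) was at 17.6 and 35.04 CPM in deligated and 31.6 and 41.6 CPM in homeostatic macrophages, and the groups overlapped. Its log2 fold change was -0.52 (SE 0.30, adjusted p = 0.289), and 0.15 (adjusted p = 0.816) once the trend on intron length, which sums to 96.3 kb in Mrc1, was removed. A thinned cell held an Mrc1 UMI in 0% and 1.56% of deligated and 3.15% and 2.52% of homeostatic macrophages, and in no thinned T cell-like cell. Although few macrophages held it, no other class had a mean above 1.8 CPM.

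Cd163 (chromosome 6, 124304656 to 124330527, plus strand) had 0 UMIs in both deligated libraries and 5 and 8 UMIs in the homeostatic libraries. Folr2 (chromosome 7, 101839988 to 101857194, minus strand, overlapping Gm10602 on the other strand) had 0 in both deligated libraries and 8 and 7 in the homeostatic libraries. In homeostatic macrophages these are 0.921 and 1.06 CPM over the group. The 1225438 UMIs of the deligated macrophages would allow up to 2.45 CPM at a count of 0, so that a difference was not detectable at this depth. Neither receptor passed the filter on low counts. The mean of Cd163 over the 4 libraries was 0.479 CPM in macrophages and 0.525 CPM in mural-like cells, so at these counts it marked neither. That of Folr2 was 0.534 CPM in macrophages and 0.323 CPM in NK-like cells, from 15 and 9 UMIs. The highest Folr2 library was at 1.12 CPM in macrophages and 1.29 CPM in NK-like cells, so at these counts Folr2 did not mark macrophages either.

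Axl (chromosome 7, 25757273 to 25788705, minus strand), a TAM receptor, was expressed in macrophages of both states. It was at 166 and 182 CPM in the deligated and 157 and 179 CPM in the homeostatic libraries, which overlapped, and its log2 fold change was -0.19 (SE 0.15, adjusted p = 0.442). An Axl UMI was found in 12.8% and 18.8% of deligated and 13.9% and 14.3% of homeostatic thinned macrophages, against at most 0.645% of T cell-like cells.

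Mertk (chromosome 2, 128698956 to 128802894, plus strand, overlapping Gm14011 on the other strand) was at 3.52 and 12.7 CPM in deligated and 22.5 and 28.2 CPM in homeostatic macrophages, from 1 and 12 against 177 and 176 UMIs. The groups did not overlap, and Mertk fell by 1.52 on the log2 scale (SE 0.39, adjusted p = 0.0408). Within macrophage-like clusters it fell by 1.44 (SE 0.48, adjusted p = 0.0417). Mertk has 99.6 kb of introns, and across 11445 genes the fold change in macrophages went down with intron length (Spearman's rho = -0.39, across genes, which are not independent replicates). With that trend removed the log2 fold change was -0.83 (SE 0.41, adjusted p = 0.250), and it was -0.06 (adjusted p = 0.982) when cells were thinned to 1000 UMIs, which left few Mertk counts. With 1 library left out it ran from -3.10 (without deligated replicate 2, adjusted p = 0.0558) to -1.24 (without deligated replicate 1, adjusted p = 0.0572), and Mertk also missed the threshold without homeostatic replicate 2 (-1.40, adjusted p = 0.111). It passed in 8 of 19 fits, the reported one included. Whether intronic reads were counted alike in the 2 Cell Ranger versions was not tested.

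Gas6 (chromosome 8, 13465374 to 13494490, minus strand, overlapping Tmem255b on the other strand), the ligand of both receptors, had 7 and 57 UMIs in deligated and 136 and 111 UMIs in homeostatic gated cells, which is 24.7 and 60.5 against 17.3 and 17.8 CPM. Both deligated libraries were higher, and Gas6 rose by 1.25 on the log2 scale in the gate (SE 0.30, adjusted p = 0.0346). Without the second deligated library the log2 fold change was 0.22 (adjusted p = 0.850). All 7 UMIs of the first deligated library were in 2 cells of fibroblast-like clusters. In the second, 20 of 57 UMIs were in macrophage-like, 19 in fibroblast-like and 17 in endothelial-like clusters. Over the group, macrophage-like clusters held 31.2% of the deligated and 54.7% of the homeostatic Gas6 UMIs of the gate. Within macrophage-like clusters the levels were 0 and 34.1 against 12.0 and 13.8 CPM, which overlapped, and the log2 fold change was 0.86 (SE 0.47, adjusted p = 0.241).

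**Figure D2:**
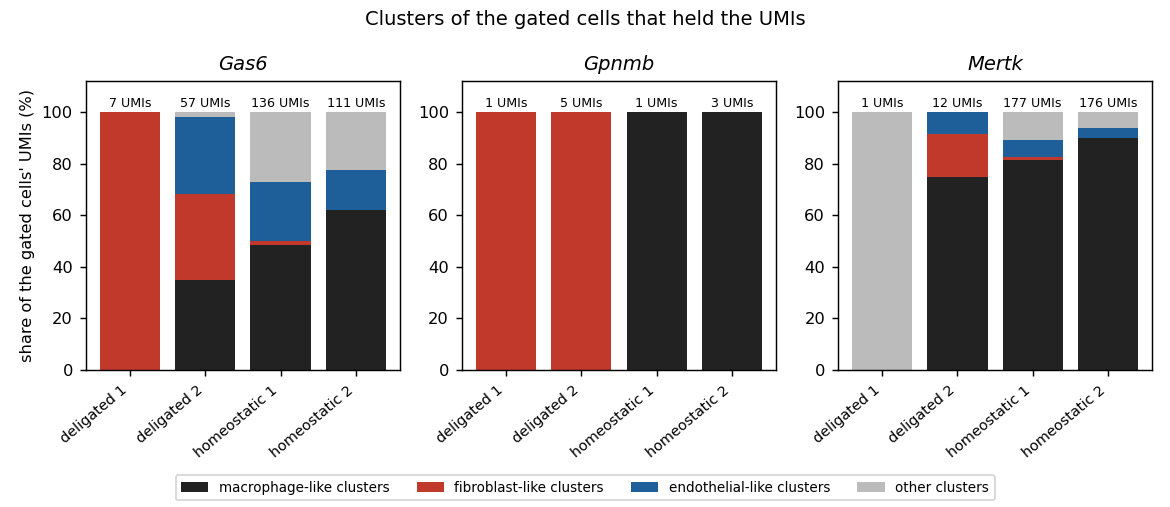
Share of the UMIs of Gas6, Gpnmb and Mertk in gated cells (percent, vertical axis) by the cluster class the cell belonged to, for each of the 4 libraries, with the number of UMIs above each bar. Cells of fibroblast-like clusters held all Gpnmb UMIs of both deligated libraries and all 7 Gas6 UMIs of the first, whereas macrophage-like clusters held most homeostatic Mertk UMIs.

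In all, 7 of the 10 genes could be tested in the gate and 2 passed, 1 higher (Gas6) and 1 lower (Mertk), when 14.9% of the 11457 tested genes passed. The median log2 fold change of the 7 was -0.19, against -0.03 over all tested genes. In macrophage-like clusters 2 of 7 passed (Apoe higher, Mertk lower) beside 17.1% of 10179 genes, and with the trend on intron length removed 1 of 7 passed in the gate (Gas6, log2 fold change 1.32, adjusted p = 0.0410) beside 8.84%. With both changes together, an alternative chosen after seeing the data, 0 of 7 passed by edgeR beside 8.23% of all genes. An unadjusted p under 0.05 was found for 2 of the 7 (Apoe and Mrc1) and for 2246 of 10179 genes.

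**Figure D3:**
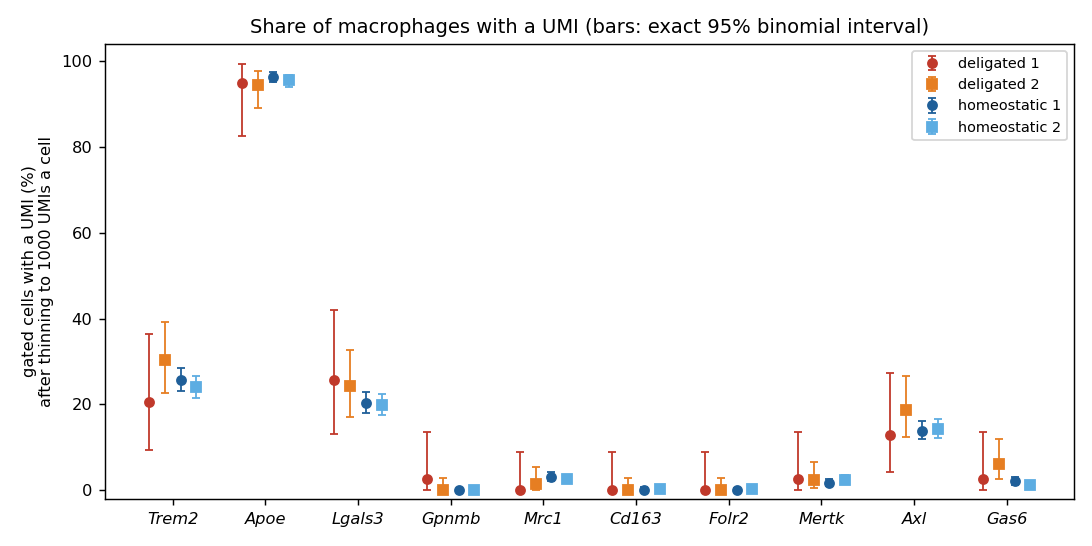
Share of C1q-gated macrophages with at least 1 UMI of each gene (percent) after thinning each cell to 1000 UMIs, per library, with exact 95% binomial intervals. Apoe was found in about all cells of each library (94.5% to 96.4%), Trem2, Lgals3 and Axl in 12.8% to 30.5%, and the other 6 genes in at most 6.25%.

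The 2 macrophage-like clusters differed in depth and in members. One was led by Wfdc17, C1qb, Lyz2 and H2-Eb1 and its gated cells had medians of 1218 to 1406 UMIs, and the other, with Cx3cr1 among its leading genes, had medians of 6016 to 9111 UMIs. Gated or not, the shallow cluster held 21 and 45 deligated against 483 and 479 homeostatic cells. The Cx3cr1 cluster held 18 and 63 against 550 and 540, so the deligated values below rest on few cells. Apoe was at 59008 and 47797 CPM in deligated against 26166 and 25567 CPM in homeostatic libraries in the shallow cluster, and at 26403 and 34476 against 22550 and 22753 CPM in the Cx3cr1 cluster. The groups were apart in both clusters, and whether the gap differed between them was not tested. In the homeostatic libraries Lgals3 was at 620 and 657 CPM in the shallow cluster against 316 and 294 CPM in the Cx3cr1 cluster. In the deligated libraries it was at 686 and 725 against 155 and 527 CPM. In the homeostatic libraries Axl was at 89.2 and 108 against 232 and 226 CPM. In the second deligated library Axl did not differ in this way, at 242 CPM in the shallow and 240 CPM in the Cx3cr1 cluster, and in the first it was at 137 and 216 CPM, from 5 and 39 UMIs. In the homeostatic libraries Mertk was at 1.39 and 5.70 CPM in the shallow cluster against 29.9 and 35.7 CPM in the Cx3cr1 cluster. In the deligated libraries the shallow cluster held no Mertk UMI and the Cx3cr1 cluster 0 and 9 UMIs. Trem2 was at 388 and 342 CPM in the shallow against 359 and 375 CPM in the Cx3cr1 cluster in homeostatic libraries, and at 247 and 673 against 233 and 506 CPM in deligated libraries. The clusters were made from these same genes, so the values describe them and were not tested, and the part of depth in them was not tested.

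Gas6, Axl, Mertk and Gpnmb had a higher mean over the 4 libraries in at least 1 other class than in macrophages. Gas6 was highest in endothelial-like cells (384 to 477 CPM), was at 159 to 325 CPM in fibroblast-like cells and was at 17.3 to 60.5 CPM in macrophages. Erythroid-like cells, which Ter119 depletion is meant to remove, had 194 to 324 CPM of Gas6, with the second highest mean, in a range that overlaps that of fibroblast-like cells. Haemoglobin was 31.2% to 39.5% of their UMIs, and the 6 endothelial markers summed to 4306 to 5237 CPM in them against 7117 to 7567 CPM in endothelial-like cells. The part of endothelial RNA in their Gas6 was not tested. Axl was at 216 to 238 CPM in fibroblast-like, 155 to 201 CPM in mural-like and 157 to 182 CPM in macrophage sums, the last 2 overlapping, while endothelial-like cells had 1.24 to 2.33 CPM. Mertk was higher in mural-like (55.9 to 143 CPM), endothelial-like (52.1 to 105 CPM) and fibroblast-like cells (24.5 to 80.6 CPM) than in macrophages (3.52 to 28.2 CPM), with overlap between neighbours. So the ligand and its receptors were spread over the stroma, with ligand but little Axl in endothelial-like cells and both in fibroblast-like cells.

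Apoe had a second source in Schwann-like cells, the glia of peripheral nerve, at 10391 to 16940 CPM from 28, 60, 40 and 43 cells, below every macrophage library. Fibroblast-like cells had 1057 to 1840 CPM. Epithelial-like cells had 4408 and 1786 CPM in the deligated libraries, from 49 and 140 cells, and 317 and 505 CPM in the homeostatic libraries, where they were below fibroblast-like (1515 and 1470 CPM) and endothelial-like cells (947 and 899 CPM). Gpnmb was at 14.5 to 57.4 CPM in Schwann-like cells, from 4, 4, 3 and 8 UMIs, and at 4.73 to 24.5 CPM in fibroblast-like cells. Lgals3 was at 99.2 to 409 CPM in Schwann-like, 82.1 to 266 CPM in epithelial-like and 60.7 to 184 CPM in T cell-like cells. Schwann-like cells were too few for a test.

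**Figure D4:**
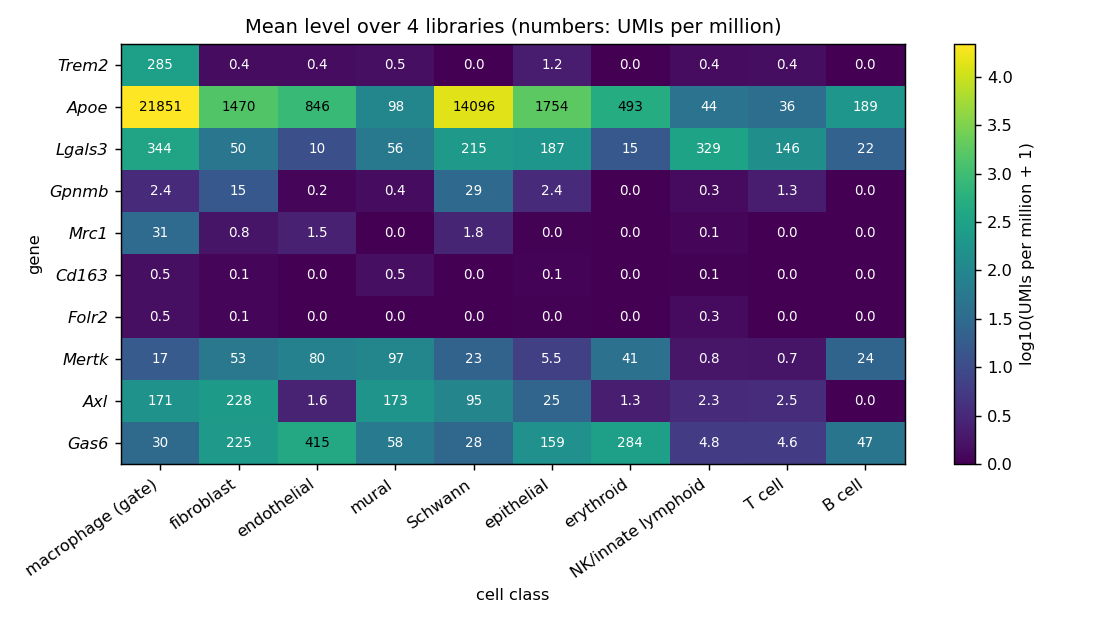
Mean level over the 4 libraries, in CPM printed in each cell and coloured as log10(CPM + 1), for the 10 genes (rows) in macrophages and 9 other cell classes (columns). Trem2 and Mrc1 stood out in the macrophage column alone (285 and 31.5 CPM), whereas Gas6, Mertk and Axl were at 225, 53.3 and 228 CPM in fibroblast-like cells.

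Fibroblast-like cells showed the most calls among the members: 3 rose and 1 fell of 6 tested, when 26.8% of 11592 genes passed. Gpnmb was at 22.2 and 24.5 CPM in deligated and 4.73 and 7.63 CPM in homeostatic fibroblasts, from 106 and 162 against 9 and 14 UMIs. The groups did not overlap, and Gpnmb rose by 1.97 on the log2 scale (SE 0.28, adjusted p = 0.000892). Lgals3 was at 68.1 and 61.3 against 35.2 and 35.4 CPM and rose by 0.93 (SE 0.16, adjusted p = 0.00284). Gas6 was at 232 and 325 against 185 and 159 CPM and rose by 0.75 (SE 0.16, adjusted p = 0.00997). The groups were apart for each of these 3 genes, and also for Axl, which was not called. With so few libraries, being apart adds no support to a call made from the same values.

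Mertk went the other way in fibroblast-like cells, at 24.5 and 29.3 CPM in deligated against 78.8 and 80.6 CPM in homeostatic libraries, and fell by 1.505 on the log2 scale (SE 0.15, adjusted p = 0.000133). Axl, at 221 and 216 against 238 CPM in both homeostatic libraries, had a log2 fold change of -0.06 (SE 0.12, adjusted p = 0.748), and Apoe one of 0.01 (SE 0.20, adjusted p = 0.988). Fibroblast-like cells came from different clusters in the 2 groups, and their medians were 13101.5 and 9256.5 UMIs a cell in the deligated against 6571 and 6605 without surgery. Thinned to 1000 UMIs a cell, which evens out the weight of deep cells, Lgals3 had a log2 fold change of 0.12 (adjusted p = 0.871) and Gas6 one of 0.73 (adjusted p = 0.0116). With 1 homeostatic library left out Gas6 was at 0.84 and 0.65 (adjusted p = 0.101 and 0.181) and Lgals3 at 0.91 and 0.94 (adjusted p = 0.0745 and 0.0650). With any 1 library left out the fold changes ran from 0.56 to 0.94 for Gas6 and from 0.82 to 1.07 for Lgals3.

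Endothelial-like cells had 2 members lower of 6 tested, when 35.6% of 13383 genes passed. Mertk was at 52.1 and 58.1 CPM in deligated and 103 and 105 CPM in homeostatic libraries, and fell by 0.90 on the log2 scale (SE 0.08, adjusted p = 0.000482). Lgals3 was low, at 8.19 and 6.89 against 15.8 and 10.2 CPM, and fell by 0.76 (SE 0.24, adjusted p = 0.0488). That call was lost without the first homeostatic library (log2 fold change -0.43, adjusted p = 0.319). Gas6, at 393 and 477 against 405 and 384 CPM, and Apoe, at 686 and 854 against 947 and 899 CPM, did not pass (log2 fold changes 0.16, adjusted p = 0.248, and -0.24, adjusted p = 0.119). With the trend on intron length removed Apoe passed as lower (-0.45, adjusted p = 0.0233). Most endothelial-like cells of the 2 groups lay in different clusters, one led by Hlx and Rsad2 and the other by Gm20532 and Dlg2.

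In mural-like cells, the pericytes and smooth muscle cells around vessels, 1 of 5 tested members passed, when 8.68% of 9726 genes did. Mertk was at 55.9 and 60.9 CPM in deligated and 130 and 143 CPM in homeostatic libraries, and fell by 1.22 on the log2 scale (SE 0.17, adjusted p = 0.000437), while Axl had a log2 fold change of 0.17 (adjusted p = 0.621). The Mertk call was lost with cells thinned to 1000 UMIs (-1.21, adjusted p = 0.0633) and with a stricter cell filter (-0.99, adjusted p = 0.0519). Of 4 members tested in NK-like cells 1 passed, beside 42.3% of 11580 genes. This was Axl at no more than 3.47 CPM, beside up to 4.46 CPM in T cell-like cells (log2 fold change 1.11, SE 0.36, adjusted p = 0.0427). It passed in 5 of 14 fits, the reported one included, and in none with a library left out (adjusted p 0.0562 to 0.243). NK-like cells of the 2 groups lay almost wholly in different clusters. In T cell-like cells 0 of 3 tested members passed by edgeR, beside 18.1% of 9640 genes. An unadjusted p under 0.05 was found for 0 of the 3 and for 3090 of the 9640 genes. Lgals3 there was at 60.7 and 158 against 184 and 183 CPM (log2 fold change -0.63, SE 0.37, adjusted p = 0.290). With 1 library left out the value ran from -1.45 (without deligated replicate 2, adjusted p = 0.000408) to -0.10 (without deligated replicate 1). Most T cell-like cells of the 2 groups also came from different clusters, led by Cd8b1 and Cd8a or by Cd163l1 and Il17a in deligated glands and by Themis, with Lef1 and Cd4, in homeostatic glands.

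Mertk was thus lower in the deligated libraries in macrophages and in all 3 stromal classes. With the trend on intron length removed it still passed in fibroblast-like (log2 fold change -0.89, adjusted p = 0.00452), endothelial-like (-0.46, adjusted p = 0.00818) and mural-like cells (-0.82, adjusted p = 0.0154), at a smaller size, and not in macrophages.

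**Figure D5:**
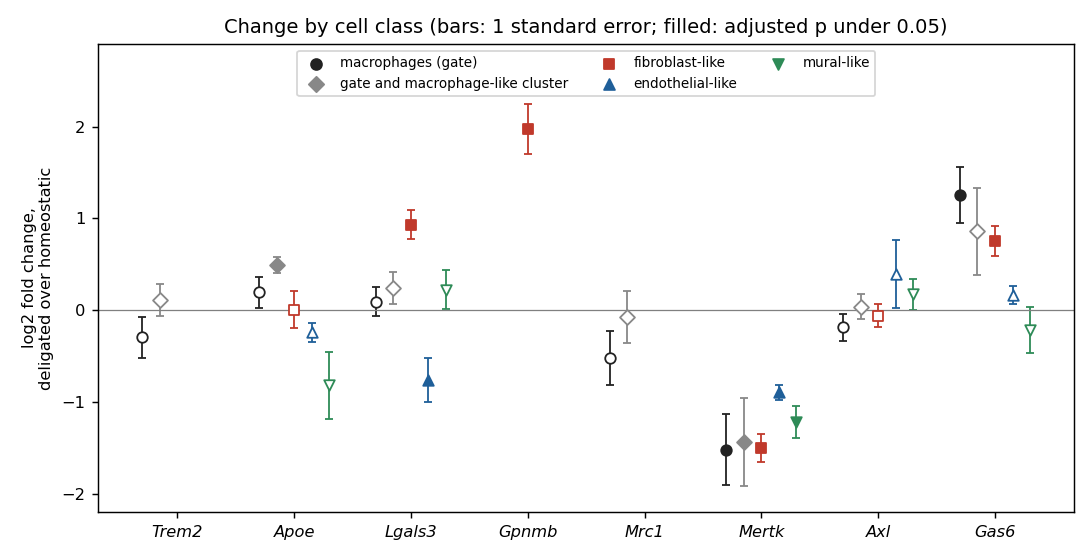
Log2 fold change of deligated over homeostatic libraries for 8 genes in macrophages (whole gate, and gated cells of macrophage-like clusters), fibroblast-like, endothelial-like and mural-like cells, with bars of 1 standard error and filled points where the adjusted p is under 0.05. Mertk is below 0 in every class shown (-0.90 to -1.52), and Gpnmb (1.97), which was tested in fibroblast-like cells and in no other class shown, and Lgals3 (0.93) are filled above 0 in fibroblast-like cells. Mrc1 is drawn for macrophages alone. Its value in endothelial-like cells (0.56, SE 0.32, adjusted p = 0.212 by edgeR) is not drawn.

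Whether the change differed between macrophages and another class was tested as an interaction, on sums of the whole gate. It was not fitted for macrophage-like clusters alone. Those held 31.2% of the deligated Gas6 UMIs of the gate, fibroblast-like clusters 40.6% and endothelial-like clusters 26.6%. The part of these other clusters in the Gas6 differences was not tested. Against fibroblast-like cells 0 of 8 tested members passed by edgeR (2.27% of 12984 genes did). Of the 8, 1 had an unadjusted p under 0.05, as did 1715 of the 12984 genes. That was Lgals3, whose log2 fold change was 0.86 lower in macrophages (interaction -0.86, SE 0.27, adjusted p = 0.202). For Mertk the difference was -0.05 (SE 0.44, adjusted p = 1.0) and for Gas6 0.41 (SE 0.29, adjusted p = 0.607). Against endothelial-like cells 0 of 9 passed (1.28% of 14446 genes did). Folr2, among the 9, had an SE of 15940 and so was not estimated. An unadjusted p under 0.05 was found for 4 of the 9 and for 1742 of the 14446 genes. These 4 were Gas6 (interaction 1.05, SE 0.29, adjusted p = 0.157), Mrc1 (-1.18, SE 0.40, adjusted p = 0.246), Lgals3 (0.84, SE 0.30, adjusted p = 0.292) and Apoe (0.42, SE 0.19, adjusted p = 0.413). The Lgals3 difference had the opposite sign to that against fibroblast-like cells. The Gas6 difference ran from 0.13 (without deligated replicate 2, adjusted p = 1) to 1.24 (without deligated replicate 1, adjusted p = 0.0228), the 1 of 7 alternatives in which it passed. In the fits with all libraries the changes of Gas6, Lgals3 and Mertk were not shown to be particular to any of these classes.

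The other genes of the same pathways, in lists drawn up with earlier results of these data known, were read in the macrophage fit, where 4.85% of all tested genes were higher and 10.1% lower. Within macrophage-like clusters these shares were 5.25% and 11.8%, and with the trend on intron length removed in the gate 4.97% and 3.88%. Of 17 tested genes for apoptotic cell uptake 3 were higher and 5 lower, with a median log2 fold change of 0.09. The higher ones were C3, a complement opsonin (log2 fold change 3.03), Lrp1, an endocytic receptor (1.60), and Mfge8, a bridging protein (1.504). Elmo1 and Dock1, which form the exchange factor that drives engulfment, fell by 2.597 and 1.44, the integrin subunit Itgav by 1.30 and Sirpa, the receptor of the signal CD47, by 0.79. Within macrophage-like clusters 4 were higher and 5 lower of 17. The 4 were C3 (4.06), Cd300lf (1.49), Cd14 (0.47) and Cx3cr1 (0.43). There Lrp1 (0.55, adjusted p = 0.0683), Mfge8 (1.04, adjusted p = 0.0762) and Sirpa (-0.40, adjusted p = 0.101) did not pass. With the trend on intron length removed the balance turned to 5 higher and 2 lower. Elmo1 and Dock1 span 505.2 and 493.7 kb of introns, and then Elmo1 had a log2 fold change of -0.90 (adjusted p = 0.0153), while Dock1 (0.24, adjusted p = 0.621), Itgb5 (0.04, adjusted p = 0.897) and Sirpa (-0.62, adjusted p = 0.0528) no longer passed. Cx3cr1 (1.09, adjusted p = 0.00728) and Pros1 (0.75, adjusted p = 0.0472) passed as higher after that step. Itgb5, Cx3cr1, Pros1, Cd300lf and Cd14 are named after their values were seen. So are Ctsd, Grn, Ctss, Ctsb, Lamp1, Selenop, Maf and Cxcl2 in the lists that follow.

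Of 23 tested genes of the lipid and lysosome programme that goes with Trem2, 4 were higher and 3 lower, with a median of 0.09. Cst7, a cathepsin inhibitor (1.89), Spp1, osteopontin (1.59), Ctsl, a cathepsin (0.97), and Itgax, the integrin CD11c (0.63), were the higher ones. Mitf, a regulator of lysosomal genes (-2.597), the lipid-activated receptor Pparg (-2.004) and the fatty acid carrier Fabp5 (-1.81) were lower. In macrophage-like clusters 6 of 21 were higher and 2 (Mitf and Pparg) lower. The higher ones were Itgax (0.66) and the lysosomal genes Ctsd (0.74), Grn (0.64), Ctss (0.44), Ctsb (0.39) and Lamp1 (0.39). There Spp1 (0.29, adjusted p = 0.572), Ctsl (0.13, adjusted p = 0.673) and Fabp5 (-0.94, adjusted p = 0.148) did not pass, and Cst7 was not tested. With the trend on intron length removed 2 were higher and 2 lower in the gate. Pparg (-1.17, adjusted p = 0.136), Cst7 (1.73, adjusted p = 0.0566) and Itgax (0.56, adjusted p = 0.0687) then missed the threshold, and Mitf was at -1.45 (adjusted p = 0.0111). Spp1 was also among the leading genes of the fibroblast-like cluster that held most deligated fibroblasts. The fibroblast markers given above moved in the gate with Spp1, Ctsl, Lrp1 and Mfge8, and with Igf1 and Fcgrt of the next list. Their part in those calls was not tested beyond the values within macrophage-like clusters.

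Of 11 tested genes of resident macrophages 3 were higher and 1 lower, with a median of 0.21. Igf1, a growth factor (1.48), Fcrls, an Fc receptor-like gene (1.01), and the Fc receptor Fcgrt (0.60) were higher, and Hpgd, which degrades prostaglandins, fell by 0.70. In macrophage-like clusters 3 were higher, namely Fcrls (1.53), Maf (0.49) and Selenop (0.45), and 1 was lower. Igf1 (0.39, adjusted p = 0.554) and Fcgrt (-0.04, adjusted p = 0.936) did not pass there. With the trend removed 1 was higher and 1 lower, and Fcrls (0.87, adjusted p = 0.0888) and Fcgrt (0.45, adjusted p = 0.132) missed the threshold. Of 12 tested genes of monocyte-derived and inflammatory cells 5 were higher and 1 lower, with a median of 0.66. Plac8 (3.98), Vcan (3.89), S100a4 (2.12) and the cytokine Il1b (1.41) were higher, and Tnf fell by 1.16. Within macrophage-like clusters 5 of 9 tested were higher and 1 lower, S100a4 (3.03), Il1b (1.63) and Tnf (-0.86) among them, and Plac8 and Vcan were too low to test. In the gate Vcan was at 3.52 and 16.99 against 1.02 and 0.32 CPM and Plac8 at 28.2 and 66.9 against 4.57 and 0.80 CPM, which are few UMIs in the deligated libraries. The fibroblast markers moved with both in the gate. Some markers of other classes did too: Cd3g was at 127 and 56.3 against 13.6 and 8.97 CPM. Nkg7 was at 134 and 157 against 53.1 and 28.2 CPM, and Pdgfrb at 28.2 and 55.2 against 2.79 and 1.76 CPM. Il7r, of the NK list, did not rise (49.3 and 37.2 against 49.9 and 53.8 CPM). The part of such RNA in the calls of this list was not tested. With the trend removed 3 were higher and 1 lower, and Il1b (1.22, adjusted p = 0.0798) and Cxcl2 (0.77, adjusted p = 0.0985) missed the threshold.

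Immediate early genes, which dissociation can also raise, were higher in 11 of 18 and lower in 0 of 18, with a median of 0.83, and higher in 15 of 18 within macrophage-like clusters and in 8 of 18 with the trend removed. Dusp1 (1.83), Klf2 (1.46), Klf4 (1.43) and Junb (1.21) led them. Since dissociation and group share the libraries, they cannot be told apart in this list.

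Across the 10 cell classes, the genes whose mean log2(CPM + 1) followed each member most closely were Lilra5 for Trem2 (Pearson's r = 0.996), Dna2 for Mrc1 (0.984), Cd63 for Axl (0.989), Nfib for Gas6 (0.969), Trim3 for Mertk (0.961), Gpm6b for Gpnmb (0.986), Ftl1-ps1 for Apoe (0.961) and Mcm7 for Lgals3 (0.886). Each r is over 10 class means that share libraries and depth and is given as a description. It was not computed for Cd163 and Folr2, which reached 10 CPM in no class.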

How the data were processed

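The authors deposited raw UMI counts per gene and barcode, made with Cell Ranger 6.0.1 (deligated) and 7.0.0 (homeostatic) per the file headers, while the submitters' processing notes name Cell Ranger 6.0.1, Seurat and mm10 for all 4 libraries. Whether introns or strand were counted is not given in the sources used here. The matrices hold 35662241 and 53898793 UMIs (deligated) and 53633980 and 52379402 UMIs (homeostatic). Cells with at least 300 genes and at most 10% mitochondrial UMIs were retained, and the highest doublet scores (Scrublet's method, 0.8% per 1000 cells) were removed. Log-normalized counts (3000 variable genes, 30 components, 20 neighbours) were clustered with the Leiden method at resolution 1.0 (scanpy 1.11.5). Clusters were named where at least 3 listed markers were detected in 10% of cells at 2.0-fold, by scoring details set with the clusters in view. A listed macrophage marker, and sums that hold it, are not reported here. Libraries shared 14 to 54 barcodes a pair.

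The members, the lists and the markers were chosen with earlier results of these data known. UMIs were summed per class and library, gated cells being left out of the other classes, and tested with edgeR 4.0.16 (quasi-likelihood, TMM, filterByExpr) in R 4.3.3, with Benjamini-Hochberg adjustment over all tested genes and a threshold of 0.05, where each library held at least 100 cells (macrophages 20). CPM is counts per 1000000 UMIs of the class sum. The fit was tested on simulated data. Intron length is the gene span minus exons in GENCODE M21 (GRCm38), which matched 30934 of 31053 gene identifiers (99.6%), and its trend was removed from fold changes as an alternative. Besides the members, up to 4 higher and 4 lower genes a list with the largest fold changes are named, and per member the gene of closest profile among those of the rule. Alternatives were other scalings, filters, tests, gates, cell filters, thinning, a replicate block and each library left out. Leaving out cells with haemoglobin, the crossed pairing, and macrophage-like clusters with the intron-length trend removed were chosen after seeing the data. The labels' replicate numbers did not pair the libraries (r = -0.13 between the deviations of deligated 1 and homeostatic 1 over 5389 genes).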

Additional observations from a re-analysis of the deposited data

Results flagged for a closer look

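Members were flagged by a rule: calls in opposite directions in 2 cell classes, with libraries that do not overlap in either. Lgals3 met it. Its log2 fold change was 0.93 in fibroblast-like cells (68.1 and 61.3 CPM in deligated against 35.2 and 35.4 CPM in homeostatic libraries) and -0.76 in endothelial-like cells (8.19 and 6.89 against 15.8 and 10.2 CPM). Of all tested genes 26.8% and 35.6% were called in these classes, and how many met the rule was not counted. The difference between these 2 classes was not tested. The rise in fibroblast-like cells was 0.12 after thinning to 1000 UMIs a cell, and in endothelial-like cells 8 of 15 fits, the reported one included, passed the threshold.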

How the results depend on the processing

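The 1708 genes called in macrophages became 369 with cells thinned to 1000 UMIs, 949 with DESeq2's Wald test, 2828 with a gate of at least 2 C1q UMIs, 2651 with no filter on low counts, 1013 with the intron-length trend removed and 838 with that and macrophage-like clusters alone. With 1 library left out the count ran from 805 (without deligated replicate 2) to 1849. Interaction calls, 295 against fibroblast-like and 185 against endothelial-like cells, ran from 70 to 634 and from 100 to 387 in the same way. The 8 member calls in other classes became 3 after thinning and ran from 5 to 11 with 1 library left out, where an arm of 1 library is assumed to vary like the other. The homeostatic share of macrophages, 11.5% on average, was 10.6% with a gate of 6 UMIs, 9.35% in macrophage-like clusters, 8.53% without cells of 10 or more haemoglobin UMIs, 12.6% with a stricter cell filter and 12.7% with predicted doublets retained. The cause of these shifts was not tested.

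The replicate numbers were not shown to pair the libraries. The fit with a replicate block called 1309 genes in macrophages, where Gas6 had a log2 fold change of 1.11 (adjusted p = 0.0666 by edgeR). It gave 8 member calls in other classes. Over all genes it called 4200 of 13383 in endothelial-like, 4283 of 11580 in NK-like and 1523 of 9640 in T cell-like cells. In fibroblast-like cells it called 3095 of 11592 and in mural-like cells 1179 of 9726. The crossed pairing, added after seeing the data, called 1792 genes.

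Log2 fold changes that changed sign were those of members that had not passed the threshold, and the cause was not tested. In macrophages these were Trem2 (0.11 in macrophage-like clusters), Lgals3 (-0.17 with a gate of 2 UMIs and -0.17 without deligated replicate 2), Apoe (-0.13 with a gate of 2 UMIs, -0.0312 with the trend removed), Mrc1 (0.15 with the trend removed, 0.69 with macrophage-like clusters as well) and Axl (0.14 thinned, 0.0373 in macrophage-like clusters, 0.0808 with the trend removed as well). In fibroblast-like cells Apoe was -0.0017 without cells of any C1q UMI, -0.32 with the trend removed, -0.0746 with doublets retained, -0.039 with the replicate block and from -0.37 to 0.33 with 1 library left out. Axl there was 0.25 thinned, 0.0139 with doublets retained and from -0.11 to 0.0203 with 1 library left out. In mural-like cells Axl was -0.10 with a stricter cell filter, and Gas6 0.0608 with doublets retained and from -0.52 to 0.13 with 1 library left out. Lgals3 in NK-like cells was 0.0235 thinned, 0.0065 by DESeq2, 0.0454 with no filter, 0.0038 with doublets retained and from -0.15 to 0.12 with 1 library left out. The differences between macrophages and fibroblast-like cells ran, with 1 library left out, from -0.13 to 0.54 for Apoe, -0.38 to 0.64 for Gas6, -0.35 to 0.0157 for Axl and -1.56 to 0.23 for Mertk.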
